A study of Mus musculus with 2 samples.

Results

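Mir103-1, Mir103-2, Mir107 and Mir33 are 4 of the 1973 microRNA (miRNA) genes counted by small RNA sequencing in mouse hearts (strain B6NCrl, embryos of 14.5 days). They were chosen by name, as miRNA genes that lie within genes of metabolism: the first 3 within the pantothenate kinase genes Pank3, Pank2 and Pank1, and Mir33 within Srebf2. All 4 had a line in both count tables. The series holds 1 group of 2 libraries, labelled biological replicates 1 and 2, and no treatment, mutant or control group. Each library is described as 1 heart, collected on different days, while the sex entry names pooled males and females, and both give the same donor entry. Spread between the libraries may therefore be technical as well as biological. With 1 group of 2 libraries no difference between groups could be tested, so each value below describes these libraries.

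A miRNA gene is transcribed as a hairpin that is cut into a short duplex, and 1 arm of it, named 5p or 3p for its side of the hairpin, is loaded into an Argonaute protein. Bases 2 to 8 of that arm, the seed, pair with target messenger RNAs and lower their output. Pantothenate kinases catalyse the first step of coenzyme A synthesis, and miR-103 and miR-107 have been described as regulators of insulin sensitivity and of Dicer. Srebf2 encodes a transcription factor that switches on genes of cholesterol synthesis and uptake, and miR-33 is known for repressing the cholesterol exporter Abca1. The RNA of these host genes was not measured here.

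The mature sequences are shown because they decide which reads can be given to a single gene. All 4 genes matched RefSeq's mouse miRNA sequences (GRCm38.p6, the assembly of mm10). Each is printed 5′ to 3′ with its seed in capitals.

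miR-103-3p, from Mir103-1 and from Mir103-2: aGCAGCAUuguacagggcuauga

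miR-107-3p, from Mir107: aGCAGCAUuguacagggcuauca

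miR-103-1-5p, from Mir103-1: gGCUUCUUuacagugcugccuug

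miR-103-2-5p, from Mir103-2: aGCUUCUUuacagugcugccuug

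miR-107-5p, from Mir107: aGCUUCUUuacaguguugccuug

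miR-33-5p, from Mir33: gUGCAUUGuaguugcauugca

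miR-33-3p, from Mir33: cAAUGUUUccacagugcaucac

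The 3p arms of Mir103-1 and Mir103-2 are identical over all 23 bases. That of Mir107 differs from them by 1 substitution, G22C, counted from 1 at the 5′ end of miR-103-3p. All 3 thus share 1 seed, GCAGCAU, and no other mature miRNA in the RefSeq table has it. The seeds of miR-33-5p, UGCAUUG, and of miR-33-3p, AAUGUUU, were found in no other entry of that table either. The 5p arms also share a seed, GCUUCUU. The 5p arm of Mir103-2 differs from that of Mir103-1 by G1A, and Mir107 differs from Mir103-2 by C16U.

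These sequences were searched, on both strands, among 2202 annotated miRNA hairpins. The full miR-103-3p sequence was found in 2 hairpins, Mir103-1 and Mir103-2, so a read of exactly that sequence has more than 1 place. The 2 hairpins share an unbroken stretch of 27 bases around it, with 3 bases before its start and 1 after its end. The full miR-107-3p was found only in Mir107, but its first 20 bases occur in 3 hairpins, and 22 bases from the 5′ end are needed before only Mir107 is left. Counted from base 1, the 5p arms become specific to 1 hairpin after 10 bases in Mir103-1, and after 16 in Mir103-2 and in Mir107. The 5p arms of Mir103-1 and Mir103-2 differ at base 1 alone. A read of either that lacks this base and ends within the arm therefore matches both hairpins. Both arms of Mir33 occur in 1 hairpin, and miR-33-5p needs 11 bases and miR-33-3p needs 9 to be told from all others.

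The hairpins follow, with both mature arms in capitals, since they show where the 3 Pank-hosted genes part.

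Mir103-1 hairpin: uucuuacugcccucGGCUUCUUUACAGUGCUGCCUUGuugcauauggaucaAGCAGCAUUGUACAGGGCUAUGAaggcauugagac

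Mir103-2 hairpin: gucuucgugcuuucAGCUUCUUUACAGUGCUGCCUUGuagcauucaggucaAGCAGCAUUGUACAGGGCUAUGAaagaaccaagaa

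Mir107 hairpin: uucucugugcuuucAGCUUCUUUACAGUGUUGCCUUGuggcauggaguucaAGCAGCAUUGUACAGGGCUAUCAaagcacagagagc

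Mir33 hairpin: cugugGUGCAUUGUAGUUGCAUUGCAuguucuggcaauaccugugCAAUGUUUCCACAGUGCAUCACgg

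Compared base by base over 86 positions without gaps, Mir103-2 and Mir107 were identical at 73 (84.9%). Mir103-1 matched each of them at 69 (80.2%). Of the 67 windows of 20 bases along the Mir103-1 hairpin, 12 (17.9%) also occur in another hairpin, against 16 of 67 (23.9%) for Mir103-2, 9 of 68 (13.2%) for Mir107 and 0 of 50 for Mir33. The stretches shared by all 3 Pank-hosted hairpins lie in and just before the 3p arm, and Mir103-2 shares a stretch on the 5p side with each of the other two. Mir103-2 is the hairpin with the most shared windows.

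**Figure D1:**
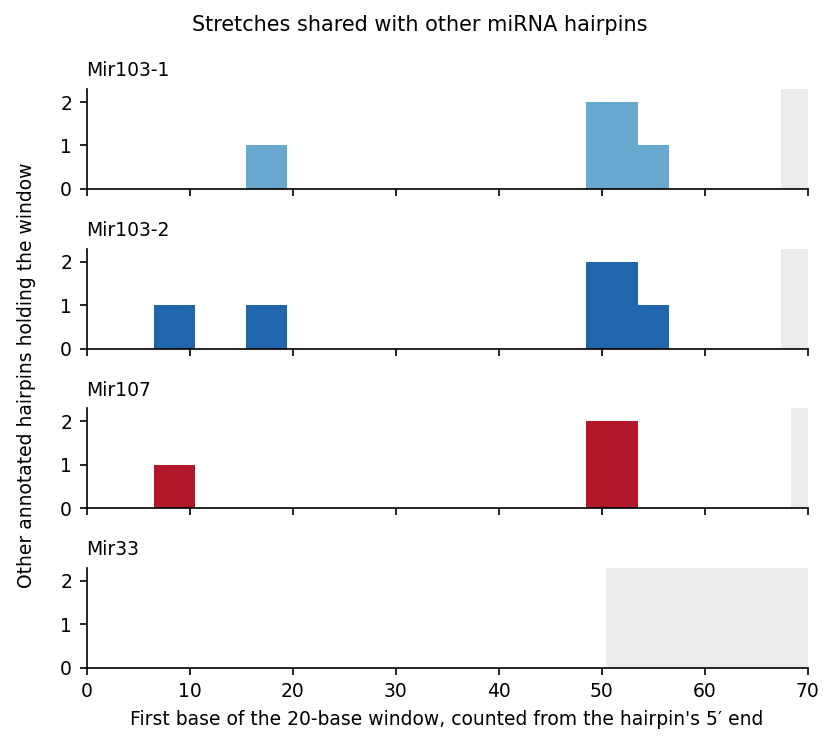
Number of other annotated mouse miRNA hairpins that hold each 20-base window, by the window's first base along the hairpin, for the 4 genes. Grey areas lie past the last window. Up to 2 other hairpins hold windows around the 3p arm of Mir103-1, Mir103-2 and Mir107, and none holds a window of Mir33.

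Each gene lies in an intron of its host and on the host's strand, and overlaps no exon of any annotated host transcript (GENCODE M21, mm10). Mir103-1 (chromosome 11, 35782396 to 35782481, plus strand) lies in intron 5 of 6 of Pank3, 688 bases past the upstream exon. Mir103-2 (chromosome 2, 131288052 to 131288137, plus strand) lies in intron 5 of 6 of Pank2, 454 bases past that exon. Mir107 (chromosome 19, 34820687 to 34820773, minus strand) lies in intron 5 of 6 of Pank1, 326 bases past it. The 3 Pank-hosted genes thus occupy introns of the same number, although the introns are 1740 bases long in Pank3, 5801 in Pank2 and 7282 in Pank1. Mir33 (chromosome 15, 82198122 to 82198190, plus strand) lies in intron 16 of 18 of Srebf2, which is 1848 bases long, 335 bases past the upstream exon. Intron numbers refer to the host's principal annotated transcript with the longest coding sequence.

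The libraries held 4327424 and 3839984 reads counted for miRNA genes, 53.1% and 52.8% of all reads. Levels are given as CPM, the counts scaled to these assigned reads, with no scaling by length, since a read is close to a whole mature miRNA. A further 2496903 and 2190149 reads, 30.6% and 30.1%, were listed in the tables as mapping to several places and belong to no gene. How many of them are miR-103-3p was not measured. The count tables do not separate the arms of a hairpin. The heart label was checked against 6 muscle miRNAs. Of these, 5 had at least 10 counts in each library, against 17.1% of all 1973 genes. The 6 summed to 77559 ± 2547 CPM (SD, n = 2), nearly all from Mir208b, Mir208a and Mir499, which lie in myosin genes. Mir1a-1 had only 13 and 10 counts, Mir133a-1 had 12 and 12, and Mir133a-2 had 2 and 5. Whether these genes lose reads that map to several places was not examined. Their low counts therefore do not show that their mature miRNAs were scarce. The check therefore rests on the genes within myosin genes.

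Among reads assigned to a single gene, Mir107 was the most abundant of the 4, Mir103-2 and Mir33 lay close together about 88-fold below it, and Mir103-1 was the lowest. Full-length miR-103-3p reads match both Mir103 hairpins, so the places of both Mir103 genes in this order cover only part of their reads. Reads of miR-107-3p that end before base 22 match all 3 Pank-hosted hairpins, so the level of Mir107 may be partial too. All reads mapping to several places were 182 times the sum of the 4 genes in replicate 1 and 178 times in replicate 2. How many of them come from these genes was not measured. Detection was set at a minimum of 10 counts per library. All 4 passed, Mir103-1 with exactly that minimum in replicate 1, against 17.1% of all 1973 genes (337). They summed to 3191 ± 29.3 CPM (SD, n = 2), or 0.319% of the assigned reads.

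Mir107 had 13425 counts in replicate 1 and 12023 in replicate 2. These are 3102 CPM (95% exact Clopper-Pearson interval 3050 to 3155) and 3131 CPM (3075 to 3187), with a mean of 3117 ± 20.3 (SD, n = 2). Intervals here and below cover only the error of counting reads. They can be too narrow for molecules, because amplified reads that carry no molecular identifier are not independent molecules. Scaled to assigned reads, the 2 libraries overlapped within counting error. Mir107 supplied 97.7% ± 0.262 of the reads assigned to the 4 genes. It was the 42nd most abundant gene in each library, and of the detected genes 87.8% lay below it.

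Mir103-2 had 143 and 146 counts. Its level was 33.0 CPM (27.9 to 38.9) in replicate 1 and 38.0 (32.1 to 44.7) in replicate 2, with a mean of 35.5 ± 3.52. It ranked 224th of the 337 detected genes by mean level, below their median of 104 CPM.

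Mir33 had 141 and 147 counts, almost the same numbers as Mir103-2. Its level was 32.6 CPM (27.4 to 38.4) in replicate 1 and 38.3 (32.3 to 45.0) in replicate 2, with a mean of 35.4 ± 4.03. It ranked 225th. Both arms of Mir33 are found in 1 hairpin, so unlike Mir103-2 it has no annotated partner with which a full-length read could be shared.

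Mir103-1 had 10 and 17 counts. Its level was 2.31 CPM (1.11 to 4.25) in replicate 1 and 4.43 (2.58 to 7.09) in replicate 2, with a mean of 3.37 ± 1.496. It ranked 325th of 337, and lay above the level of 3 counts, which is 0.693 CPM in replicate 1 and 0.781 in replicate 2. For both Mir103 genes these counts hold only reads that could be given to 1 gene, so the level of miR-103-3p itself is not given by them.

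**Figure D2:**
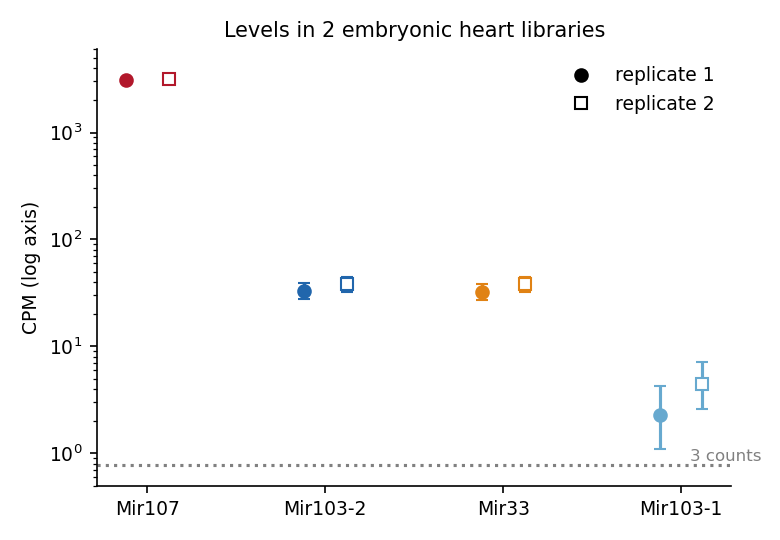
CPM of the 4 genes in replicate 1 (filled circles) and replicate 2 (open squares) on a log axis, with 95% exact counting intervals as bars. The dotted line is the level of 3 counts in replicate 2. Mir107 lies at 3102 and 3131 CPM, Mir103-2 and Mir33 overlap between 32.6 and 38.3, and Mir103-1 lies at 2.31 and 4.43.

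Ratios within a library do not depend on how the libraries are scaled. Mir107 had 93.9 times the counts of Mir103-2 in replicate 1 (exact conditional binomial interval 79.6 to 111) and 82.3 times in replicate 2 (69.95 to 97.6). The intervals overlap, but at the counts of Mir103-2 they are too wide to show that the 2 libraries gave the same ratio. The ratio sets a gene whose full 3p arm is found in 1 hairpin against one whose 3p arm is found in 2, so it is no ratio of miR-107-3p to miR-103-3p. Against Mir33 the ratio was 95.2 (80.7 to 113) and 81.8 (69.5 to 96.9).

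Mir103-2 exceeded Mir103-1, the other source of miR-103-3p, 14.3-fold in replicate 1 (7.55 to 30.5) and 8.59-fold in replicate 2 (5.18 to 15.1). Both intervals lie above 1 and they overlap. With the 3p arm shared, this ratio rests on reads in which the 2 hairpins differ, and it does not measure how much miR-103-3p each gene makes. Within the 5p arm they differ at base 1 alone.

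Among reads assigned to a single gene, Mir103-2 and Mir33 could not be told apart in level. Full-length 3p reads of Mir103-2 match another hairpin, while those of Mir33 do not. The likeness therefore does not show that the 2 genes yield equal amounts. The ratio of Mir103-2 to Mir33 was 1.01 in replicate 1 (0.798 to 1.29) and 0.993 in replicate 2 (0.784 to 1.26), so the order turned between the libraries. In order of level the genes were therefore Mir107, then Mir103-2 and Mir33 with no order between them, then Mir103-1, and for reads assigned to a single gene this order held in both libraries.

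**Figure D3:**
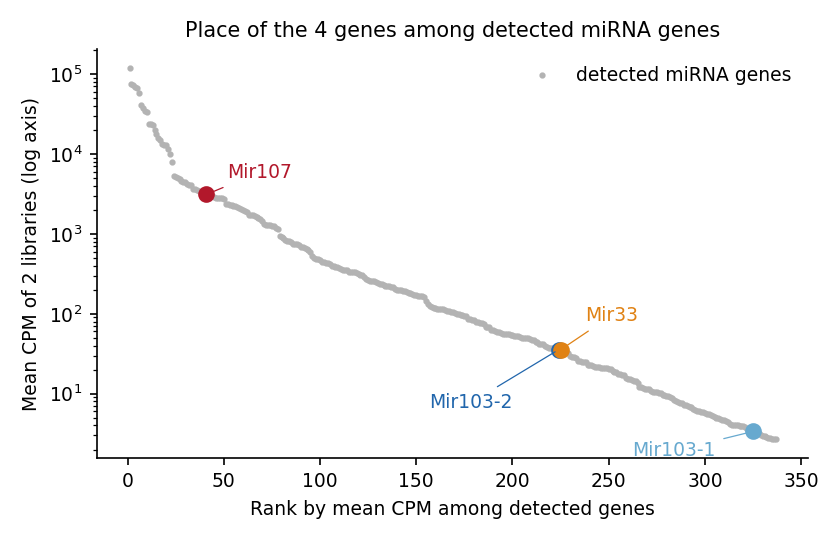
Mean CPM of the 337 detected miRNA genes on a log axis against their rank. Mir107 is 41st by mean level, Mir103-2 and Mir33 are 224th and 225th, and Mir103-1 is 325th.

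Among detected genes the members were compared with others of like sequence or position, as a description. Of 916 measured genes with a RefSeq mature sequence, 58 have at least 1 arm that also occurs in another hairpin and at least 1 that does not, as Mir103-1 and Mir103-2 do. Of these, 34 (58.6%) were detected, with a median of 51.2 CPM. Mir103-2 was the 24th of the 34 and Mir103-1 the lowest of them. Mir107 and Mir33 belong to the 798 genes with no full arm in another hairpin, of which 259 (32.5%) were detected with a median of 117 CPM. There Mir107 was 37th and Mir33 170th of 259. By position, 854 measured miRNA genes lie within a protein-coding gene on its strand and 157 of them (18.4%) were detected, with a median of 113 CPM. Mir107 was 22nd of these 157, Mir103-2 95th, Mir33 96th and Mir103-1 151st.

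Scaled by total counts, the ratio between the libraries was close to 1 for Mir107 and widest for Mir103-1. Mir107 was 1.01-fold in replicate 2 against replicate 1 (exact conditional interval 0.985 to 1.03), and only 10 of 337 detected genes lay closer to equality. Its sign turned with the scaling: the log2 ratio was 0.013 by total counts, -0.052 with edgeR's TMM and -0.10 with DESeq2's median-of-ratios. The TMM and median-of-ratios values lie below the lower end of the interval, which was computed by total counts. Mir103-2 was 1.15-fold (0.907 to 1.46) and Mir33 1.17-fold (0.926 to 1.49), and 144 and 170 detected genes lay closer to equality than they did. Mir103-1 was 1.92-fold, with an interval of 0.828 to 4.68 from its 10 and 17 counts, and 315 of the 337 lay closer to equality. With total counts the interval held 1 for all 4 genes and left out 1 for 52.2% of detected genes. Its width follows the counts, so at the depth of Mir103-1, Mir103-2 and Mir33 it does not show that the libraries were alike. Over all detected genes the median absolute log2 ratio between the libraries was 0.23.

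**Figure D4:**
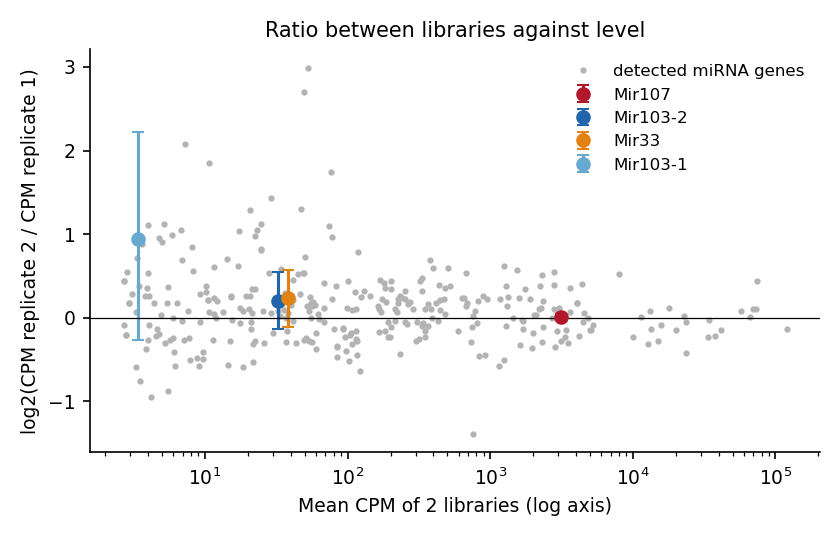
log2 ratio of CPM in replicate 2 to replicate 1 against mean CPM (log axis) for detected miRNA genes (grey) and the 4 genes, with 95% exact counting intervals as bars; Mir103-2 and Mir33 are drawn slightly apart from their near-equal mean levels. Scaled to assigned reads, Mir107 lies at equality and the intervals of all 4 genes include it.

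The genes most like each member were found as the 3 nearest detected genes by distance of log2(CPM + 1) over the 2 libraries. With 2 libraries this reflects level far more than pattern. Nearest to Mir107 were Mir542 (3144 CPM), Mir324 (3052) and the heart miRNA Mir499 (3023). Mir33 was the nearest gene to Mir103-2 and Mir103-2 the nearest to Mir33, at a distance of 0.022, and both were followed by Mir701 (36.2 CPM) and Mir7-1 (35.8). Nearest to Mir103-1 were Mir325 (3.61), Mir8111 (3.35) and Mir6240 (4.01).

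The miR-15/16 group is related to miR-103 and miR-107 by seed. Its seed AGCAGCA, at bases 2 to 8, is the stretch at bases 1 to 7 of miR-103-3p and miR-107-3p, and 2 examples show the shift.

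miR-15a-5p, from Mir15a: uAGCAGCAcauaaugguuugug

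miR-322-5p, from Mir322: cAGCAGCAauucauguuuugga

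Mir107 lay below only 1 of the 9 measured genes listed for this group, Mir322, which had 69474 ± 3573 CPM (SD, n = 2). Next after Mir107 were Mir503 at 2975 ± 101, whose mature arm does not carry the full seed, and Mir15a at 2104 ± 34.6. In both libraries Mir107 lay above Mir503 and Mir15a. Of the 9, 7 were detected, against 17.1% of all genes, with a median of 1591 CPM over the 9 against 0 over all genes. Mir103-2 and Mir103-1 lay below all 7. The group is known for restraining the cell cycle. Of the 9, 3 have an arm found in another hairpin. For the pair Mir16-1 and Mir16-2 the levels are uncertain as those of the Mir103 genes are. The third, Mir497b, had 2 and 0 counts, against 2130 and 2006 on the other strand. Mir497 and Mir497a, also listed for this group, were not measured.

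**Figure D5:**
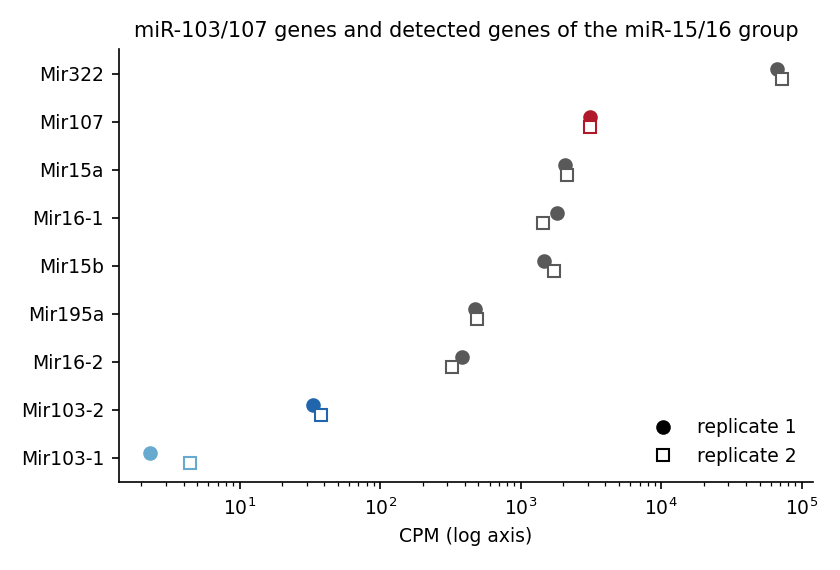
CPM on a log axis in replicate 1 (filled circles) and replicate 2 (open squares) for Mir107, Mir103-2 and Mir103-1 and for the detected genes whose mature miRNA carries the miR-15/16 seed. Mir107 is second to Mir322, and the Mir103 genes are the lowest.

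Other miRNAs described as acting on cholesterol and lipid genes were set beside Mir33. All 13 listed genes were measured and detected, against 17.1% of all genes, and their levels had a median of 115 CPM. Mir33, at 35.4 CPM, lay below 11 of them and above Mir128-2 and Mir758. The most abundant were Mir106b at 3636 ± 630 CPM, Mir27b at 1541 ± 423 and Mir148a at 1436 ± 0.869. Mir122, the abundant miRNA of liver and a regulator of cholesterol synthesis there, had 166 and 171 counts, or 41.4 ± 4.36 CPM, and lay above Mir33 in each library, although the counting intervals of Mir33 reach 38.4 and 45.0. The presence of liver RNA was checked with Mir122 and Mir192, which summed to 88.3 CPM in replicate 1 and 104 in replicate 2. Other markers had larger sums that differed between the replicates. In the same order, 4 epithelial genes summed to 425 and 832 CPM, and 2 red blood cell genes to 1184 and 489. For 2 white blood cell genes the sums were 479 and 389. Of 6 listed neuron genes, 2 were measured and had no assigned reads. The part of RNA from liver or these other sources in the level of Mir33 was not tested. Of the 12 listed genes with a RefSeq sequence, 4 have an arm found in another hairpin, Mir128-2 among them. Reads shared between hairpins belong to no gene, so these levels are uncertain, as is the place of Mir33 above Mir128-2.

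Mir107 was set beside miRNAs linked to insulin and glucose. Of 12 listed genes 11 were measured, and Mir378a is not analysed here. Of the 11, 7 were detected, against 17.1% of all genes, with a median over the 11 of 17.3 CPM. Of the 9 with a RefSeq sequence, 2 have an arm found in another hairpin, Mir29b-1 and Mir29b-2. Neither was detected, and reads shared between hairpins belong to no gene, so the levels of both are uncertain. Mir107 lay below Mir143, a smooth muscle miRNA at 74458 ± 15820 CPM, and above the other 10. Next were Mir320 at 733 ± 105 and Mir29a at 254 ± 39.2, so Mir107 stood clear of both in each library. Mir103-2, at 35.5 CPM, lay between Mir29c (99.9 ± 21.1) and Mir378d (20.1 to 22.0).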

How the data were processed

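Small RNA reads of 2 embryonic heart libraries were analysed from deposited tables of raw counts per miRNA gene. Per the file headers and labels, the authors used mm10 and GENCODE M4, with 1 table per library. For the aligner and the counter, no name is given in the sources used here. The tables hold counts for both strands together and for each strand. The strand with the larger total was used (95.3% and 95.4% of gene reads), and totals exclude the 4 lines for reads outside genes. Symbols and coordinates came from GENCODE M21 (same assembly), which named 1894 of 1973 identifiers.

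Counts were scaled to CPM (log2 with a pseudocount of 1 CPM). Intervals are exact at 95%. The members and lists were chosen with earlier results of these data known. Genes named were the members, their 3 nearest detected genes and the 3 most abundant of each list. Added after their values were seen were Mir122, Mir192, Mir16-1, Mir16-2, Mir128-2, Mir758, Mir29c, Mir378d, Mir1a-1, Mir133a-1, Mir133a-2, Mir29b-1, Mir29b-2 and Mir497b. Sequence matches were sought among annotated hairpins, not the genome. Alternatives were the strand column, edgeR 4.0.16 TMM and DESeq2 1.42.0 median-of-ratios scaling, other totals, thinning, pseudocounts, count minimums and leaving out a replicate. The ratio between libraries and its interval were tested on simulated counts that hold counting error only. The scaling step was run on them, but its output was not checked. Python 3.11.15, scipy 1.17.1 and R 4.3.3 were used.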

Additional observations from a re-analysis of the deposited data

How the results depend on the processing

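Ratios between members cannot move with the scaling or total, and with 2 libraries leaving out either returns the other's value: 82.3 to 93.9 for Mir107 to Mir103-2, 81.8 to 95.2 for Mir107 to Mir33, 0.993 to 1.01 for Mir103-2 to Mir33, 707 to 1342.5 for Mir107 to Mir103-1, 8.59 to 14.3 for Mir103-2 to Mir103-1 and 8.65 to 14.1 for Mir33 to Mir103-1. Levels depend on the total used. With the total of all reads the levels fell to 1651 CPM for Mir107, 18.8 for Mir103-2, 18.8 for Mir33, 1.78 for Mir103-1 and 1690 for their sum. Without the most abundant gene in the total, they were 3540 CPM for Mir107, 40.3 for Mir103-2, 40.2 for Mir33 and 3625 for the sum. With both strands together Mir107 had 2972 CPM and the sum 3043. On the other strand all 4 genes and their sum had 0 counts and 0 CPM. The log2 ratio of replicate 2 to replicate 1 for Mir107 was -0.052 with TMM and -0.10 with median-of-ratios, against 0.013. At least 1 count in each library left 542 genes detected in place of 337, with all 4 members among them in both, while at least 100 counts left 231 genes and 3 members, without Mir103-1. The first 20 and the first 18 bases of miR-107-3p each occur in 3 hairpins, against 1 for the full sequence. A pseudocount of 10 CPM replaced 1 of the 3 genes nearest Mir103-1. No paired analysis was possible because there is 1 group. Depth limits Mir103-1 most, with 10 and 17 counts.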
